A study of Felis catus with 23 samples.

Results

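The miRNAs of the miR-17-92 and miR-106b-25 clusters were followed in cat serum, from 11 animals labelled with hypertrophic cardiomyopathy (HCM, in which the wall of the left ventricle thickens) and 12 healthy controls, each on 1 array. The members were 9 miRNA names, 6 from miR-17-92 (hsa-miR-17-5p, hsa-miR-18a-5p, hsa-miR-19a-3p, hsa-miR-19b-3p, hsa-miR-20a-5p and hsa-miR-92a-3p) and 3 from miR-106b-25 (hsa-miR-106b-5p, hsa-miR-93-5p and hsa-miR-25-3p). They were chosen by name and not by a measured value, though earlier results of these data were known. All 9 were on the array, with 19 of its 4944 miRNA probes and 9 of its 2026 miRNA names. The array was a 1-colour Agilent design for human miRNAs, so each name is that of a human probe, given below without the prefix hsa, and the match of the probes to cat miRNAs was not analysed here. Per the labels, blood of both groups clotted for 20 min before the serum was taken, and the labels give no age, breed, drug treatment or disease stage. Nothing in them says that a cat was sampled more than once, and each array was taken as 1 cat.

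Both clusters are polycistronic, which means that their hairpins are cut from 1 primary transcript. The miR-17-92 transcript is driven by MYC and E2F factors and is active in dividing cells, while the miR-106b-25 hairpins lie in an intron of MCM7, a gene of the DNA replication machinery. The members fall into seed families that run across the clusters. miR-17-5p, miR-20a-5p, miR-106b-5p and miR-93-5p share a seed and restrain cell cycle inhibitors such as CDKN1A, and miR-18a-5p has a closely related seed. miR-19a-3p and miR-19b-3p share a seed of their own. miR-92a-3p, known as a brake on vessel growth in endothelial cells, shares its seed with miR-25-3p. In blood, several members are carried by red cells, platelets and leukocytes as well as free in serum.

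Detection split the members into 3 sets. miR-92a-3p, miR-25-3p and miR-106b-5p were detected on all 23 arrays, miR-19b-3p on 10 arrays, and the other 5 on between 0 and 3 arrays. Detection here means that the scanner flagged 50% or more of the spots of a probe as well above background. Of the 9 names, 3 were seen on 13 arrays, 4 on 7 arrays, 6 on 1 array and 8 on 2 arrays. The 2 arrays with 8 names were healthy replicate 16 and HCM replicate 10, and the array with 6 was HCM replicate 12.

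**Figure D1:**
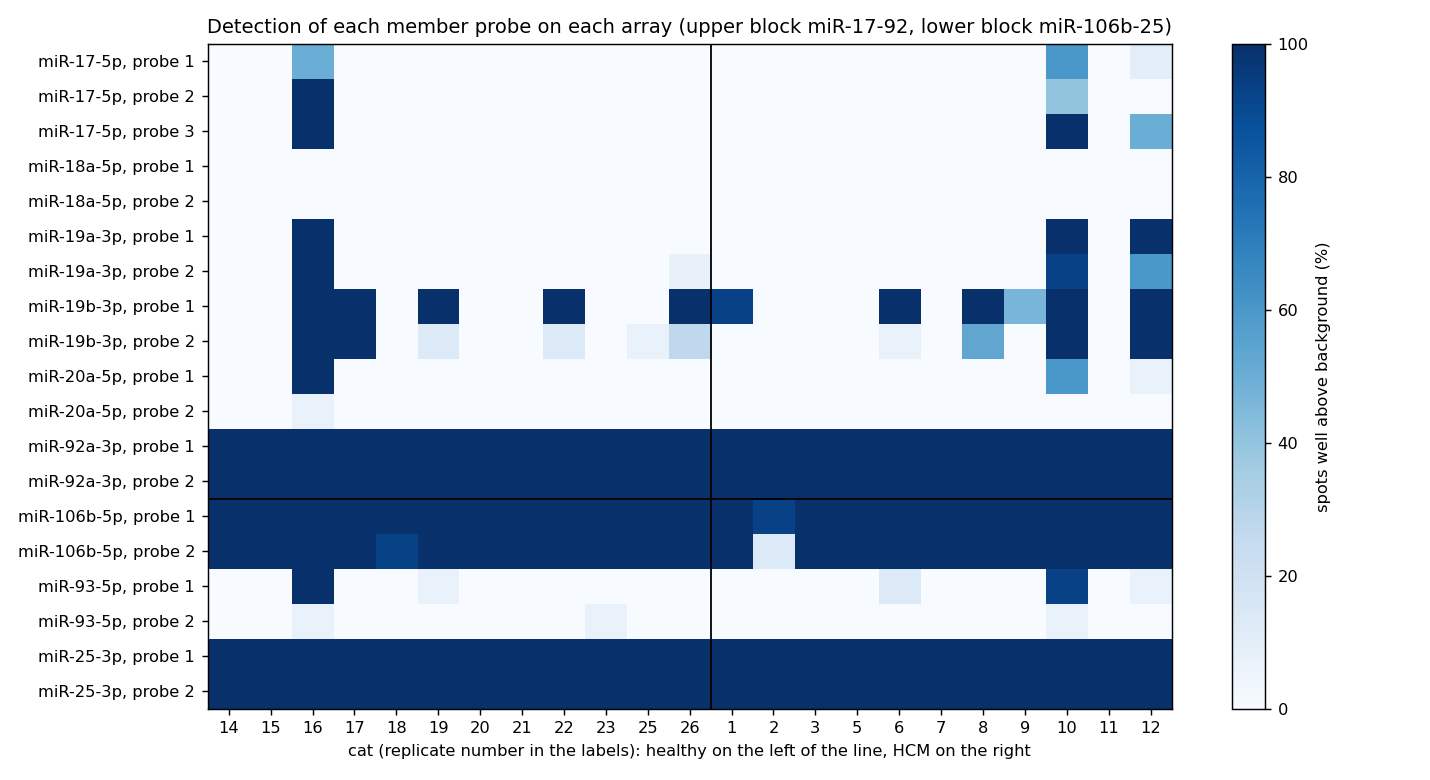
Share of spots well above background (colour, 0 to 100%) for each of the 19 member probes (rows) on each of the 23 arrays (columns, 12 healthy on the left and 11 HCM on the right). miR-92a-3p and miR-25-3p are dark throughout, while miR-17-5p, miR-19a-3p, miR-20a-5p and miR-93-5p are dark mainly in the columns of healthy 16 and HCM 10.

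miR-18a-5p was detected on 0 of 23 arrays by either probe, and its highest processed intensity was 1.29. miR-17-5p, the founding name of the larger cluster, was detected on healthy replicate 16 at an intensity of 17.4, on HCM replicate 10 at 10.5 and on HCM replicate 12 at 6.63. The same 3 arrays detected miR-19a-3p, at 15.6, 16.8 and 9.66. For miR-20a-5p the arrays with detection were healthy replicate 16 at 15.5 and HCM replicate 10 at 6.02. miR-93-5p, the only dim member of miR-106b-25, was detected on the same pair of arrays at 12.1 and 7.60. These 4 names were thus detected on healthy replicate 16 and HCM replicate 10, with HCM replicate 12 added for miR-17-5p and miR-19a-3p, and were not well above background on the remaining arrays. The detections are those of the 1 probe that stood for each name. The other probe of miR-20a-5p and that of miR-93-5p were detected on 0 of 23 arrays. Of the other probes of miR-17-5p, 1 was detected on 2 arrays and 1 on 1 array, while that of miR-19a-3p was detected on 3.

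Those arrays differed in brightness. The 75th percentile intensity of the scaling probes, which measures the brightness of an array, was 166 on healthy replicate 16, below the median of 283. It was 427 on HCM replicate 10 and 503 on HCM replicate 12, both above that median. Of all 2026 names, these 3 arrays detected 439, 585 and 608, against a median of 478 over 23 arrays. The red cell miRNA miR-451a read 12.3, 9.02 and 7.14 on the 3 arrays on the log2 scale, against a median of 5.40 over 23 arrays. On healthy replicate 22, which had the second highest miR-451a at 9.56 and a brightness of 104, 4 of the 9 names were detected. The part of red cell content and array brightness in these detections was not tested.

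Levels are given as log2 of the scaled intensity, with each array scaled to its 75th percentile and values floored at 2.45. The level of 1 probe is not comparable with that of another, so members are compared between arrays and not with each other. miR-92a-3p read from 8.57 to 11.3 in HCM serum, with a median of 10.4, and from 8.10 to 11.6 in healthy serum, with a median of 10.03. Its lowest reading was in healthy replicate 15 and its highest in healthy replicate 16, an 11.0-fold range over the 23 cats. miR-25-3p read from 7.33 to 10.3 in HCM (median 8.87) and from 6.95 to 10.4 in healthy serum (median 8.66). The lowest array was again healthy replicate 15, while the highest was healthy replicate 22. miR-106b-5p read from 4.08 to 7.97 in HCM (median 5.73) and from 4.05 to 8.23 in healthy serum (median 5.95), an 18.1-fold range. Healthy replicates 16 and 22 and HCM replicate 10 were its 3 highest arrays, at 8.23, 8.04 and 7.97.

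For miR-19b-3p, 6 arrays of each group read at the floor, and 5 of each group detected it. Its detected readings in HCM were 2.73, 3.47, 3.95, 6.01 and 7.26. In healthy serum they were 3.21, 3.54, 4.03, 5.30 and 8.07, and healthy replicate 20 read 3.33 without detection. The values of both groups overlapped for each of these 4 members. For miR-106b-5p, 1 healthy array read below all HCM arrays and 2 above them. For miR-25-3p, 2 healthy arrays read below all HCM arrays and 1 above them, and no HCM array (0 of 11) lay outside the healthy range for any of the 4.

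**Figure D2:**
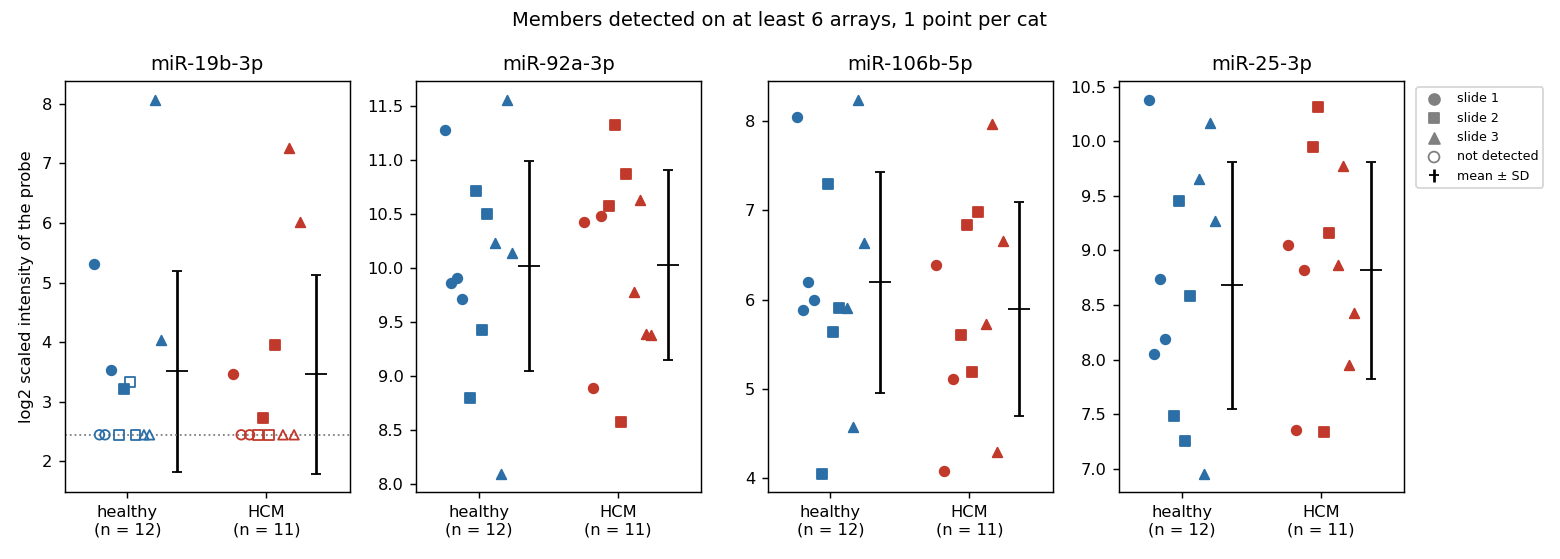
Log2 scaled intensity of the 4 members detected on at least 6 arrays, 1 point per cat, with colour for the group, shape for the slide and open points where the probe was not detected. Black marks give the mean ± SD, the dotted line in the first panel is the floor of 2.45, and each panel has its own y axis. The HCM and healthy points cover nearly the same range in every panel.

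The comparison of HCM with healthy serum asked which circulating miRNAs differ with the disease. None of the 4 tested members differed past the threshold, an adjusted p of 0.05 in limma over all 543 names detected on at least 6 arrays. Over those 543 names limma called 0, or 0%. At an unadjusted p under 0.05 there were 36, or 6.63%, and 0 of the 4 members were among them. miR-92a-3p was 10.03 ± 0.88 (SD, n = 11) in HCM and 10.02 ± 0.97 (SD, n = 12) in the controls, a difference of 0.01 (95% interval -0.74 to 0.76, limma p 0.982, adjusted p 0.994). Of the 11 HCM arrays, 6 read above the median of the controls. miR-25-3p was 8.82 ± 0.99 in HCM against 8.68 ± 1.13 in the controls, a difference of 0.14 (95% interval -0.72 to 0.99, limma p 0.745, adjusted p 0.937), with 7 of the 11 HCM arrays above the control median. miR-106b-5p was 5.89 ± 1.19 in HCM and 6.19 ± 1.24 in healthy serum. Its difference of -0.30 had the smallest p of the 4 (95% interval -1.27 to 0.67, limma p 0.527, adjusted p 0.860), with 6 of the 11 HCM arrays below the control median. miR-19b-3p was 3.46 ± 1.67 in HCM and 3.51 ± 1.68 in the controls, a difference of -0.05 (95% interval -1.38 to 1.28, limma p 0.939, adjusted p 0.991). Each interval spans 0, and the narrowest, that of miR-92a-3p, still includes changes of 0.74 in either direction, so the test does not show that the groups are alike. The median difference of the 4 members was -0.02, beside -0.10 over all 543 names, which moved to 0.21 without scaling between arrays. In that setting the sign of miR-106b-5p and of miR-19b-3p was positive.

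For the 5 names that were detected on some but not all arrays, detection was compared between groups by a 2-sided Fisher's exact test, adjusted over the 438 names of that kind. miR-17-5p and miR-19a-3p were each detected on 2 HCM arrays and 1 healthy array (exact p 0.590), miR-20a-5p and miR-93-5p on 1 of each (exact p 1), and miR-19b-3p on 5 of each (exact p 1). All adjusted p were 1, and 0 of 438 names, or 0%, passed, while 18 had an unadjusted p under 0.05. Detection is called before scaling and so also depends on the brightness of the array.

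The arrays lay on 3 slides, with 3 HCM and 4 healthy arrays on slide 1 and 4 of each on slides 2 and 3. Row 1 of every slide held the HCM samples and row 2 the controls, so the row and the group cannot be told apart. For miR-106b-5p, HCM minus healthy was -1.33, 0.43 and -0.17 on slides 1, 2 and 3. For miR-25-3p the slides gave -0.43, 0.997 and -0.26, for miR-92a-3p -0.26, 0.47 and -0.21, and for miR-19b-3p -0.65, 0.03 and 0.29. No member had the same sign on every slide. A test of the difference between slides, the group by slide interaction in limma, called 0 of 543 names (0%), with 13 at an unadjusted p under 0.05. The interaction p of the members lay between 0.350 for miR-25-3p and 0.834 for miR-19b-3p (limma adjusted p 0.998 each). With slide as a block the 4 differences were 0.01, 0.13, -0.31 and -0.08 for miR-92a-3p, miR-25-3p, miR-106b-5p and miR-19b-3p.

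**Figure D3:**
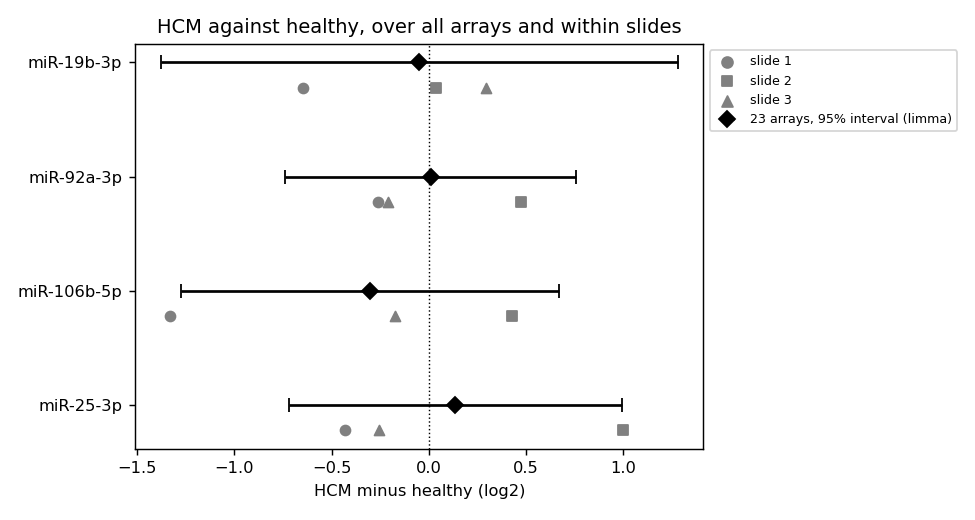
Difference HCM minus healthy on the log2 scale (x axis) for each tested member. Diamonds with bars are the limma estimate over 23 arrays with its 95% interval, and the grey symbols below each are the differences within slides 1, 2 and 3. Each interval spans 0, and the slide values of each member lie on both sides of 0.

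The spread between arrays was wider than the disagreement between probes and spots of one array. With each array taken as 1 cat, the error of extraction, labelling and hybridization is part of that spread and was not measured. Both probes of miR-92a-3p differed by 0.43 ± 0.04 (SD over 23 arrays) on the log2 scale, while the miRNA itself had an SD of 0.91 over the arrays. For miR-25-3p the gap between probes was 0.22 ± 0.07 against an SD of 1.05. miR-106b-5p had the least even pair, with a gap of 0.91 ± 0.15 on the 22 arrays where both were detected, against an SD of 1.20. miR-19b-3p had a gap of 0.96 ± 0.04 on 5 arrays. The coefficient of variation over the spots of a probe had a median of 4.37% for miR-92a-3p, 3.44% for miR-25-3p, 6.92% for miR-106b-5p and 12.0% for miR-19b-3p (3.03% to 20.1% on 9 arrays). The median SD of all 543 names over the arrays was 0.54. Against it, miR-19b-3p had 1.64, at or above 99.3% of the tested names, and miR-106b-5p, miR-25-3p and miR-92a-3p were at or above 96.5%, 93.4% and 89.0%. Tested names needed detection on only 6 arrays, and values at the floor do not spread, so these ranks include names with a narrowed SD. miR-19b-3p itself read at the floor on 6 arrays of each group.

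The cats that were high in one detected member were mostly high in the others. All 6 pairs of the 4 members were positively correlated over the 23 arrays, with adjusted permutation p (100000 resamples, 2-sided) of 0.0302 or less over the 6 pairs. miR-92a-3p and miR-25-3p, which share a seed but come from different clusters, had a Pearson r of 0.92 (permutation p 1e-05, adjusted 1.5e-05) and a Spearman rho of 0.90 (permutation p 1e-05, adjusted 4e-05). The p of 1e-05 is the smallest that these resamples can give. Without healthy replicate 15 and HCM replicate 7, the 2 arrays farthest from the median of miR-92a-3p, r was 0.90. Within slides 1, 2 and 3, r was 0.96, 0.91 and 0.96, and it was 0.93 in HCM and 0.91 in healthy serum. The gap between these names on 1 array ran from 0.58 to 2.18 on the log2 scale with an SD of 0.41, wider than the gap between both probes of either name.

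miR-106b-5p followed its cluster mate miR-25-3p with an r of 0.78 (rho 0.74, permutation p 1e-05 and 7e-05, adjusted 1.5e-05 and 0.000105), and 0.72 without healthy replicates 16 and 22. Within the slides r was 0.88, 0.69 and 0.83. With miR-92a-3p of the other cluster it had an r of 0.79 (rho 0.76, permutation p 1e-05 and 2e-05, adjusted 1.5e-05 and 4e-05), 0.79 without the 2 farthest arrays, and 0.83 on each slide. With miR-19b-3p its r was 0.76 (rho 0.81, permutation p 1e-05 and 2e-05, adjusted 1.5e-05 and 4e-05), 0.65 without healthy replicate 16 and HCM replicate 10, and 0.83, 0.61 and 0.90 within the slides.

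miR-19b-3p and miR-92a-3p, both listed here under miR-17-92, had an r of 0.45 (rho 0.47, permutation p 0.0302 and 0.0255, adjusted 0.0302 and 0.0255). Their other arms are named for more than 1 hairpin each (miR-19b-1-5p and miR-19b-2-5p, miR-92a-1-5p and miR-92a-2-5p). The signal of these 2 names therefore cannot be assigned to 1 primary transcript. Without healthy replicate 16 and HCM replicate 10 this r fell to 0.26 (permutation p 0.259), so it did not hold without those 2 arrays. Leaving out healthy replicate 16 alone gave 0.31 (adjusted permutation p 0.164), healthy replicate 22 alone 0.41 (adjusted permutation p 0.0592) and HCM replicate 10 alone 0.44 (adjusted permutation p 0.0462). The r within the slides was 0.71, 0.34 and 0.67, and it was 0.18 in HCM and 0.67 in healthy serum. In the same way miR-19b-3p and miR-25-3p had an r of 0.46 (rho 0.47, permutation p 0.0254 and 0.0246, adjusted 0.0302 and 0.0255) that fell to 0.29 (permutation p 0.208) without them, with 0.79, 0.10 and 0.59 within the slides, 0.27 in HCM and 0.62 in healthy serum. On 12 of the 23 arrays miR-19b-3p was at the floor, where its values have no order. Whether one r differs from another was not tested, and the arrays of a pair share their RNA, labelling and scaling. Over all 147153 pairs of the 543 tested names the median r was 0.02. An r as high as that of miR-92a-3p and miR-25-3p was found in 0.830% of them, and one as high as that of miR-19b-3p and miR-92a-3p in 11.8%.

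**Figure D4:**
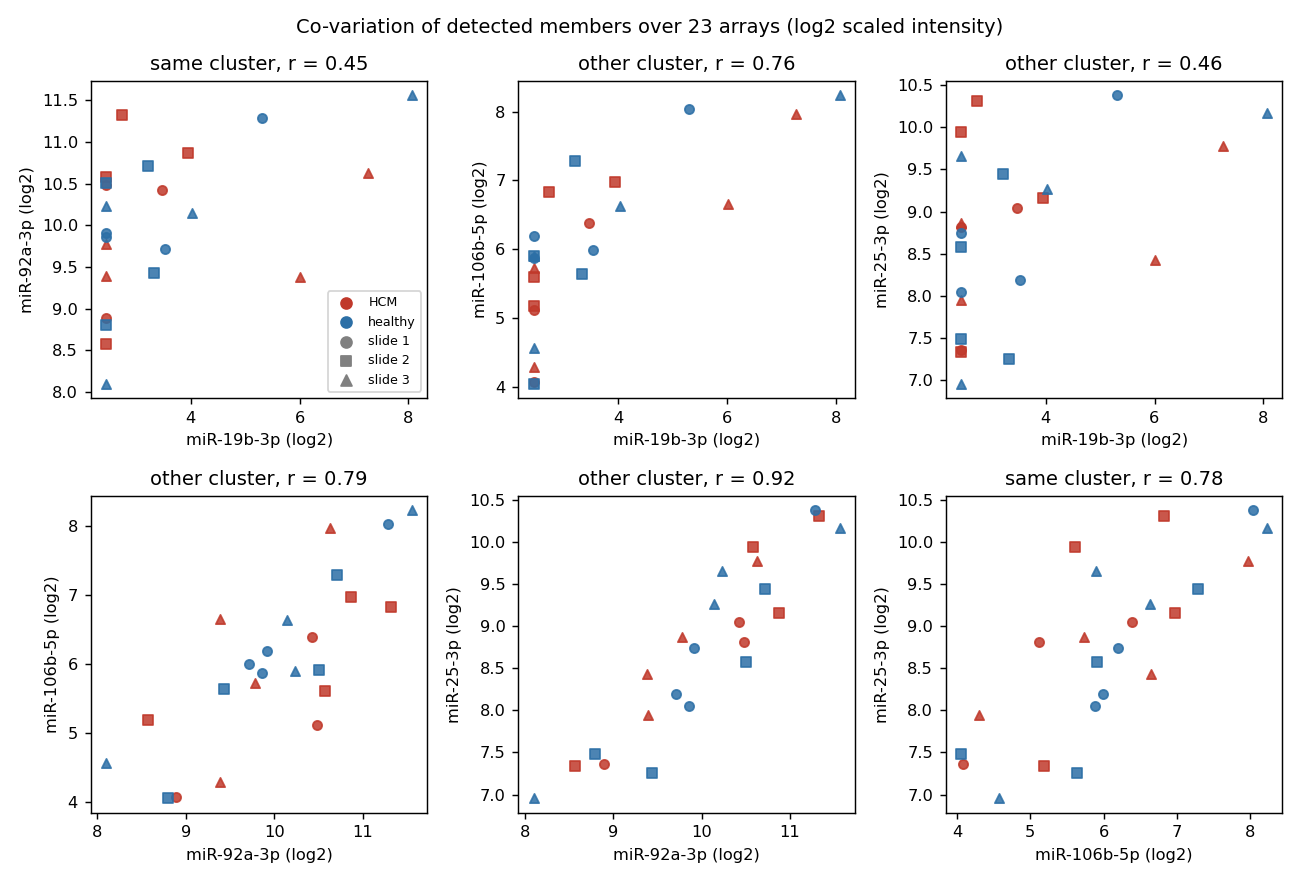
Log2 scaled intensities of each pair of detected members, 1 point per cat over 23 arrays, with colour for the group and shape for the slide. The panel titles say whether both names lie in the same cluster and give Pearson's r, which runs from 0.45 for miR-19b-3p and miR-92a-3p to 0.92 for miR-92a-3p and miR-25-3p.

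Ratios of 2 members on the same array do not depend on the scaling between arrays, except where the floor enters. In none of the 6 pairs did this log2 ratio differ between the groups past the threshold. miR-106b-5p minus miR-25-3p had the smallest p, with a mean of -2.92 ± 0.86 (SD, n = 11) in HCM and -2.49 ± 0.60 (SD, n = 12) in the controls, a difference of -0.44 (2-sided permutation p 0.165, adjusted p 0.875 over the 6 pairs). That difference was -0.90, -0.57 and 0.08 on slides 1, 2 and 3.

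Among the tested names outside the clusters, those most like the members were found by Pearson's r over the 23 arrays. miR-425-5p came first for miR-25-3p (r 0.93), miR-92a-3p (r 0.92) and miR-106b-5p (r 0.89). miR-186-5p came next for miR-25-3p and miR-92a-3p (r 0.86 and 0.90). The third names were the red cell miRNA miR-486-5p for miR-25-3p (r 0.83) and miR-130b-3p for miR-92a-3p (r 0.86). For miR-106b-5p, miR-142-5p (r 0.87) and miR-140-3p (r 0.87) followed. miR-19b-3p had other neighbours, miR-27a-3p (r 0.94), let-7i-5p (r 0.91) and miR-23b-3p (r 0.90). Ranked among all 542 other tested names, miR-25-3p was at place 2 for miR-92a-3p, while miR-19b-3p was at place 57 for it. Without scaling these places were 1 and 176, with quantile normalization 1 and 63, and on the values of the authors' deposited table they were 2 and 38. These r are a description without a test.

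Red cell content was read as miR-451a, which red cells carry in bulk, minus miR-23a-3p on the log2 scale. It ran from -3.86 to 0.27 in HCM and from -2.74 to 3.22 in healthy serum. The reference miR-23a-3p itself ran from 4.03 to 8.83 in HCM and from 6.10 to 9.13 in healthy serum. The highest HCM value of the measure was in HCM replicate 2, whose miR-451a was below the median of 5.40 over 23 arrays. HCM replicate 10, with a miR-451a of 9.02, read 0.19. The measure thus also varied with miR-23a-3p, and the members were not tested against miR-451a alone. Of 8 relations, the 4 members against this measure and against array brightness, 0 passed an adjusted p of 0.05. miR-19b-3p came closest, with an r of 0.57 (permutation p 0.0064, adjusted p 0.0512) and a rho of 0.32 (permutation p 0.142, adjusted p 0.379). Its r was 0.18 without healthy replicates 16 and 22, and 0.35, -0.09 and 0.80 within slides 1, 2 and 3. For miR-92a-3p, miR-106b-5p and miR-25-3p the r was 0.43, 0.43 and 0.40 (adjusted permutation p 0.111 each), the rho 0.34, 0.26 and 0.33 (adjusted permutation p 0.379, 0.448 and 0.379), and the r without those arrays 0.11, 0.02 and 0.10. Within slides 1, 2 and 3 the r was 0.27, 0.21 and 0.84 for miR-92a-3p, 0.18, 0.13 and 0.76 for miR-106b-5p, and 0.34, 0.16 and 0.68 for miR-25-3p. Against array brightness the members had an r between -0.22 and 0.00 (adjusted permutation p 0.494 or more) and a rho between -0.14 and 0.09 (adjusted permutation p 0.826 or more). Within slides 1, 2 and 3 the r with brightness was -0.12, 0.24 and -0.76 for miR-92a-3p and -0.29, 0.59 and -0.62 for miR-25-3p. It was -0.31, 0.01 and -0.35 for miR-106b-5p and -0.17, -0.47 and -0.28 for miR-19b-3p. These values within slides were not tested.

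**Figure D5:**
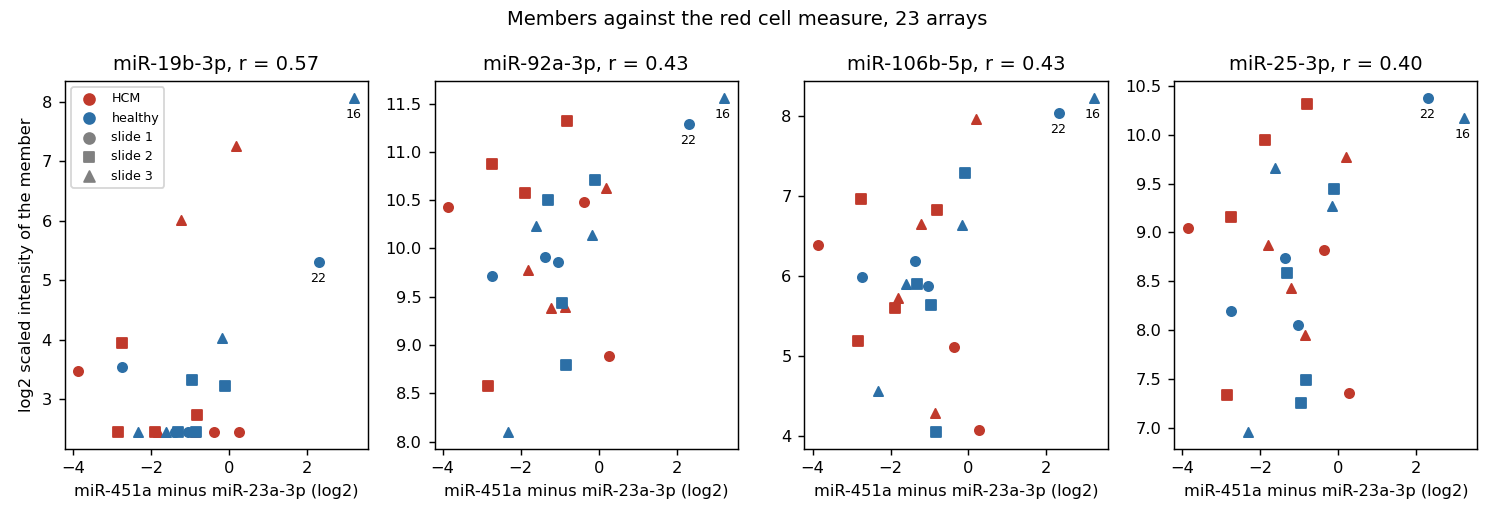
Log2 scaled intensity of each detected member (y axis) against miR-451a minus miR-23a-3p in log2 units (x axis) on 23 arrays, with colour for the group and shape for the slide. The 2 points at the right, labelled 16 and 22, are the healthy replicates of those numbers, and without them r fell to between 0.02 and 0.18.

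Relatives of the members were mostly undetected, and over the whole array 543 of 2026 names were detected on at least 6 arrays. The share of all names detected nowhere is not given here, so the counts below are not read as a trait of the relatives. Of 7 names from the paralogous miR-106a-363 cluster and close family members, 6 were on the array and 4 of these were detected nowhere, including miR-20b-5p and miR-363-3p. miR-92b-3p, which shares the seed of miR-92a-3p, was detected on all 11 HCM arrays but on 6 of the 12 controls. Its level was 2.86 ± 0.33 (SD, n = 11) in HCM and 3.18 ± 0.59 (SD, n = 12) in the controls, a difference of -0.32 (limma adjusted p 0.802), so its detection and its scaled level pointed in opposite directions. The 2-sided Fisher's exact test of its detection did not pass after adjustment (exact p 0.0137, adjusted p 0.547 over the 438 names). Of 16 names for the other arms of these hairpins, 13 were detected nowhere. The remaining 3 were tested, and 0 of them passed. miR-17-3p, the opposite arm of miR-17-5p, was detected on 14 arrays, where miR-17-5p was detected on 3, with a difference of -0.36 (limma adjusted p 0.802). miR-18b-3p was detected on 11 HCM and 8 healthy arrays (exact p 0.0932, adjusted p 0.928 by the same test, level difference -0.33, limma adjusted p 0.802) and miR-106b-3p on 11 (difference -0.16, limma adjusted p 0.836). The group means of these 3 arms lay between 2.74 and 3.22, also near the floor.

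Some markers of blood cells were detected in these sera and others were detected on few arrays or none. Of 6 red cell names, miR-451a, miR-486-5p and miR-144-3p were detected on all 23 arrays, miR-16-5p on 3, miR-486-3p on 1 and miR-144-5p on 0. Their summed level ran from 10.3 to 13.4 in HCM and from 10.4 to 13.7 in healthy serum on the log2 scale. For 6 platelet names it ran from 6.02 to 8.74 and from 6.17 to 8.89. The sum of 6 leukocyte names ran from 6.29 to 8.23 and from 6.51 to 8.59, where 6 names at the floor give 5.03. Among the platelet names, miR-151a-3p was detected on 23 arrays, miR-223-3p on 21, miR-24-3p on 20 and miR-197-3p on 18. miR-126-3p was detected on 1 and miR-191-5p on 0. Among the leukocyte names, miR-181a-5p was detected on 23 arrays, miR-142-5p on 18 and miR-155-5p on 6. miR-146a-5p was detected on 3, miR-142-3p on 2 and miR-150-5p on 1. Of 5 muscle names 0 reached the 6 arrays needed for a test, and miR-1 was detected on none. miR-208b was detected on 2 HCM arrays and 0 healthy arrays, miR-133a and miR-499a-5p on 1 and 0 each, and miR-206 on 2 and 1. The summed level of the muscle names ran from 4.77, where all 5 read at the floor, to 7.72 in HCM and to 4.84 in healthy serum. The liver name miR-122-5p ran from the floor of 2.45 to 7.93 in HCM and to 5.72 in healthy serum. The part of these markers in the members' values was not tested. None of the tested marker names differed between HCM and healthy serum past the threshold. Fewer cells of a type and less RNA per cell cannot be told apart in these sera.

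In the authors' deposited table of log2 values, 8 of the 9 names were used, and miR-18a-5p was not analysed. The normalization behind that table is not stated, and its column medians lay between 2.98 and 3.31. In the authors' deposited table healthy replicate 16 had the highest value for miR-17-5p (4.60), miR-19a-3p (4.45), miR-19b-3p (7.85), miR-20a-5p (4.40) and miR-93-5p (4.16). HCM replicate 10 was second in the authors' deposited table for miR-17-5p, miR-19a-3p, miR-19b-3p (7.58) and miR-93-5p (2.68). For miR-92a-3p and miR-25-3p the highest array of the authors' deposited table was HCM replicate 6, at 11.51 and 10.5, and for miR-106b-5p it was HCM replicate 10, at 8.28. For these 3 names the highest cat thus differed between the deposited and the scaled values. Before scaling, HCM replicate 10 also read above healthy replicate 16 for miR-19b-3p (257 against 174) and miR-19a-3p (16.8 against 15.6). For miR-17-5p, miR-20a-5p and miR-93-5p healthy replicate 16 read higher before scaling too. With limma over all 965 names of the authors' deposited table, 1 name was called (0.104%) and 0 of the 8 members were. No difference is given for miR-17-5p, miR-19a-3p, miR-20a-5p and miR-93-5p, which were well above background on 2 or 3 arrays. For the detected members the authors' deposited table gave -0.07 for miR-19b-3p, 0.17 for miR-92a-3p, -0.13 for miR-106b-5p and 0.29 for miR-25-3p (limma adjusted p 0.902 or more). Restricted to the 543 names tested above, the authors' deposited table gave 4 calls (0.737%), again with 0 of the 4 members among them.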

How the data were processed

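Serum miRNAs were measured on 23 single-colour Agilent arrays. Per the file headers, the deposited scanner files hold spot intensity on a linear scale from Agilent Feature Extraction 10.7.3.1, background-subtracted and not normalized between arrays. Per the file headers, detection, outlier and saturation flags accompany each spot. A table of the whole series, as the authors deposited it, gives log2 values for 1758 probes. Their scale and direction were settled from the scanner signals (r per array between 0.987 and 0.9998, slope between 0.950 and 0.980, over probes above an intensity of 8), while their centring is not given in the sources used here.

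Control spots and outlier spots (1.81% to 3.95% per array) were left out, the spots of a probe averaged, and each array divided by the 75th percentile of the 508 probes that every array detected. Scaled intensities were floored at 5.45, the 5th percentile of detected values (log2 2.45). The probe with the highest mean stood for a name, and names detected on at least 6 arrays were tested. No member spot was saturated (0). The number of arrays limits the precision, and the limma p-values weigh a difference against the spread between these samples. An array detected between 322 and 608 names.

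Groups were compared with limma 3.58.1 in R 4.3.3 (lmFit and eBayes, no covariate, 2-sided, Benjamini-Hochberg over all tested names). Permutation tests used 100000 resamples in Python 3.11.15 with numpy 2.4.6, and Fisher's exact test scipy 1.17.1. Fisher's test had been planned with adjustment over the members and was adjusted over all names instead. The fits and the correlation test were tested on simulated data. Normexp used the median spot signal, because the files hold no mean. Alternatives covered background, scaling, floor, filter, probe choice, outlier spots, deposited values, slide and left-out arrays. The members and lists were chosen with earlier results of these data known. The rule for naming was all 9 members, fixed lists of relatives, other arms and cell markers, and for each tested member the 3 outside names with the highest r.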

Additional observations from a re-analysis of the deposited data

How the results depend on the processing

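In the 16 alternatives and the 23 fits that each left out 1 array, 0 members were called. The count over all tested names, 0 in the main setting, was 1 with the floor at the 1st percentile (lowest adjusted p 0.0234), 4 with the scanner's total gene signal (0.737%), 4 on the authors' deposited log2 values and 1 over every name of that table. It was 0 in the other 12 alternatives and in each fit without 1 array. For miR-19b-3p the sign was positive without scaling (0.24), with the 75th percentile over all probes (0.0100), with the mean of all probes of a name (0.0249), with the total gene signal (0.10) and without the 4 dimmest arrays (0.11). For miR-106b-5p it was positive without scaling (0.12) and without the 4 dimmest arrays (0.0224). Leaving out 1 array gave -0.43 to 0.36 for miR-19b-3p, -0.17 to 0.15 for miR-92a-3p, -0.0205 to 0.29 for miR-25-3p and -0.51 to -0.12 for miR-106b-5p. The highest value of miR-19b-3p was without healthy replicate 16, and the lowest of miR-92a-3p without healthy replicate 15. The cause of these changes was not tested.

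Between 4 and 6 of the 6 member pairs stayed past the threshold in the 14 alternatives and in the fits without 1 array. The pairs that lost it were those of miR-19b-3p with miR-92a-3p and with miR-25-3p. They did so in some of the alternatives and without healthy replicate 22, and the latter also without HCM replicate 10. The former stood at an r of 0.31 (adjusted permutation p 0.164) and the latter at 0.37 (adjusted permutation p 0.109) without healthy replicate 16. The r of miR-92a-3p and miR-25-3p lay between 0.91 and 0.96 in the alternatives. Of the 8 relations to brightness and the red cell measure, 2 passed without scaling. These were miR-92a-3p and miR-25-3p with brightness (r 0.53 and 0.58, adjusted permutation p 0.0392 and 0.0274), where unscaled values carry the brightness itself. Detection by 1 spot, by every spot or by any probe of a name called 0 members, and the interaction with slide called 0 names without scaling and on the deposited values. With detection required on 12 arrays, miR-19b-3p was not tested. The array brightness covariate, centring by group within slide, the fit without the 4 dimmest arrays, every deposited name and the ratios of 2 members were chosen after seeing the data. No paired analysis was possible because the groups share no replicate number. The 5 dim members lie near background, where signals have no order.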
